A study of Mus musculus with 14 samples.

Results

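The fatty acid binding proteins Fabp1 to Fabp7 are 7 of the 19938 genes measured here in mouse organs and organoids. Each gene was read from the probe set that the array annotation gives to that symbol alone, and where a gene had more than 1 such probe set the one with the highest mean signal was used. All 7 were found, and all were tested. RNA came from C57BL/6 mice and was hybridised to Affymetrix arrays, 1 array per sample and 2 samples per group. Organoids are epithelial cultures, here grown in Matrigel. Their medium held B27, N2, N-acetylcysteine, EGF, FGF10, HGF, nicotinamide, R-spondin 1 and noggin. For the differentiated gallbladder organoids R-spondin 1, noggin and nicotinamide had been withdrawn for 2 weeks. They were compared with gallbladder organoids in full medium, those with liver organoids and small intestine organoids, each organoid with the whole tissue of its organ, and the tissues of gallbladder, liver and small intestine with each other. Nothing in the labels says that the 2 samples of a group came from separate animals or cultures. The p-values therefore measure only the spread between replicates, which may be technical. Each gene has 1 error, pooled over all 14 arrays, so a comparison also takes in the spread of groups outside it.

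Fatty acid binding proteins are small soluble proteins that carry long-chain fatty acids and related lipids through the cytosol. The family members are named for the tissue they were found in. Fabp1 is the liver type, shared by hepatocytes and absorptive enterocytes, Fabp2 is the intestinal type, and Fabp6 is the ileal type, which binds bile acids. Fabp3 is the heart and muscle type, Fabp4 the type of adipocytes, macrophages and capillary endothelium, Fabp5 the epidermal type with a broad range, and Fabp7 the brain type of radial glia. Several of the family are target genes of the PPAR nuclear receptors, and Fabp6 is a target of the bile acid receptor FXR, the product of Nr1h4.

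The RefSeq promoter table (build GRCm38.p6) held 5 of the 7 genes. The 250 bases before the start are printed here for the 4 of these 5 with the widest range of group means. Fabp6 is among the 4 through 1 array alone, small intestine tissue replicate 1. The sequences can be read beside the patterns that follow. They are Fabp1 at chr6:71199629-71199878 on the plus strand, Fabp2 at chr3:122894822-122895071 on the plus strand, Fabp6 at chr11:43601563-43601812 on the minus strand and Fabp7 at chr10:57784673-57784922 on the plus strand. Each runs 5′ to 3′ along the gene, and capitals mark every match to a searched motif on either strand.
Fabp1: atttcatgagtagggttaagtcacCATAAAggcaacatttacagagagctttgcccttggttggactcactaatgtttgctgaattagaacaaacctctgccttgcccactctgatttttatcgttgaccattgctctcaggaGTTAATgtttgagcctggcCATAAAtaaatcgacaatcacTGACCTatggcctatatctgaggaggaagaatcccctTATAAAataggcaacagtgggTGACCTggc
Fabp2: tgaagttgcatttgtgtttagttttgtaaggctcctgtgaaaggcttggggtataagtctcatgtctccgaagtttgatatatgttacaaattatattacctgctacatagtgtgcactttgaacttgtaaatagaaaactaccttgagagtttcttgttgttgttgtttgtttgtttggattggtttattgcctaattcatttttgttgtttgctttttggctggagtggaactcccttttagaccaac
Fabp6: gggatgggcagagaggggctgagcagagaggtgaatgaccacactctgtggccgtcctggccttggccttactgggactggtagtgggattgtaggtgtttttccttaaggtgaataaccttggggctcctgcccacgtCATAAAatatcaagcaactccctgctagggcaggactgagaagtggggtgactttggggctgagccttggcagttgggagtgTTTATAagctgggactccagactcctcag
Fabp7: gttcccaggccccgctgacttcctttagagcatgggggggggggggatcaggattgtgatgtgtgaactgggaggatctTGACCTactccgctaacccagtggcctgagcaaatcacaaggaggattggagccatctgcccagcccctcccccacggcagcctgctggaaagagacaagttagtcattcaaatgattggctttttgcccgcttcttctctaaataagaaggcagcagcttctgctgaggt
The motifs were chosen with these sequences in view, and a match is a description, not a binding site. The TATA box letters TATAAA stood in the promoter of Fabp1, from base -30 relative to the start, and, on the opposite strand, in that of Fabp6, from base -29. They were found in 12.4% of all 32851 promoters of this length. CATAAA, the letters bound by CDX factors of the intestine, matched at 2 places in Fabp1 and at 1 in Fabp6 (10.8% of all promoters). AGGTCA, the element of nuclear receptors, matched at 2 places in Fabp1 and at 1 in Fabp7, all on the opposite strand (14% of all promoters), and its direct repeat spaced by a single base matched in none of the 5 (0.0335% of all). GTTAAT, part of the HNF1 element, matched in Fabp1 (6.43% of all). The GATA letters TGATAA (7.94%) and AGATAA (9.99%) and the RBPJ letters GTGGGAA (5.42%) matched in none of the 5. No searched letters stood in these windows of Fabp2 and Fabp3. The Fabp2 window held 35.6% G and C bases, the Fabp1 window 42.8%, the Fabp6 and Fabp7 windows 54.8% each and the Fabp3 window 64.8%, against a median of 52.4% over all promoters.

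Signals are log2 values, on which 1 unit is a doubling, and array medians lay between 7.12 and 7.44. No detection call was used, so the lowest level that counts as expressed is unknown, and levels are compared within a gene, not between genes. Replicates correlated across genes at 0.996 to 0.998 in the 4 organoid groups, at 0.982 in liver tissue, 0.972 in small intestine tissue and 0.965 in gallbladder tissue. The 2 small intestine tissue arrays stood apart from each other. All 7 pancreatic acinar markers were higher on replicate 2 (mean 12.84) than on replicate 1 (6.89), while several genes of the ileum were higher on replicate 1, as given with Fabp6. The gallbladder tissue arrays carried hepatocyte markers, with means over the 13 markers of 12.07 and 13.52, against 14.08 and 13.83 in liver tissue. Albumin (Alb) read 14.30 on both gallbladder tissue arrays and 14.34 and 14.35 in liver tissue, near the highest signal of the file, 14.78. Liver organoids were low in the hepatocyte markers as a set (means 6.68 and 6.58, Alb 6.36 and 6.04). Ttr, named after its values were seen, was an exception in that list, with a mean of 12.61. Liver organoids had the duct keratin Krt19 at 13.76 and 13.77, against 7.29 and 7.41 in liver tissue. The brush border enzyme Sis, a marker of enterocytes, read 13.44 and 13.38 in small intestine organoids and 13.87 and 13.77 in small intestine tissue. Means of 10 endothelial markers lay at 6.70 to 6.90 in organoids and 8.0 to 9.44 in tissues. In whole-tissue RNA, fewer cells of a type and less RNA per cell cannot be told apart.

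The 7 genes varied widely between groups and mostly not together. The lowest and highest of the 7 group means lay 2 log2 units or more apart in 6 of the 7 genes (85.7%), against 20.8% of all genes, and the median of this range was 4.27 in the family and 0.98 over all genes. Fabp3 was the exception, with a range of 0.65. Fabp6 is among the 6 through 1 array alone, small intestine tissue replicate 1 (13.16), while its other arrays lay between 5.15 and 5.67. The family was chosen with earlier results of these data known, so these shares are a description. Across the 14 arrays the closest pair was Fabp1 with Fabp2 (Pearson r = 0.84), followed by Fabp1 with Fabp4 (0.70) and Fabp5 with Fabp7 (0.57), and the most opposed was Fabp2 with Fabp3 (-0.58). These values describe arrays that share groups, so they carry no p-value.

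**Figure D1:**
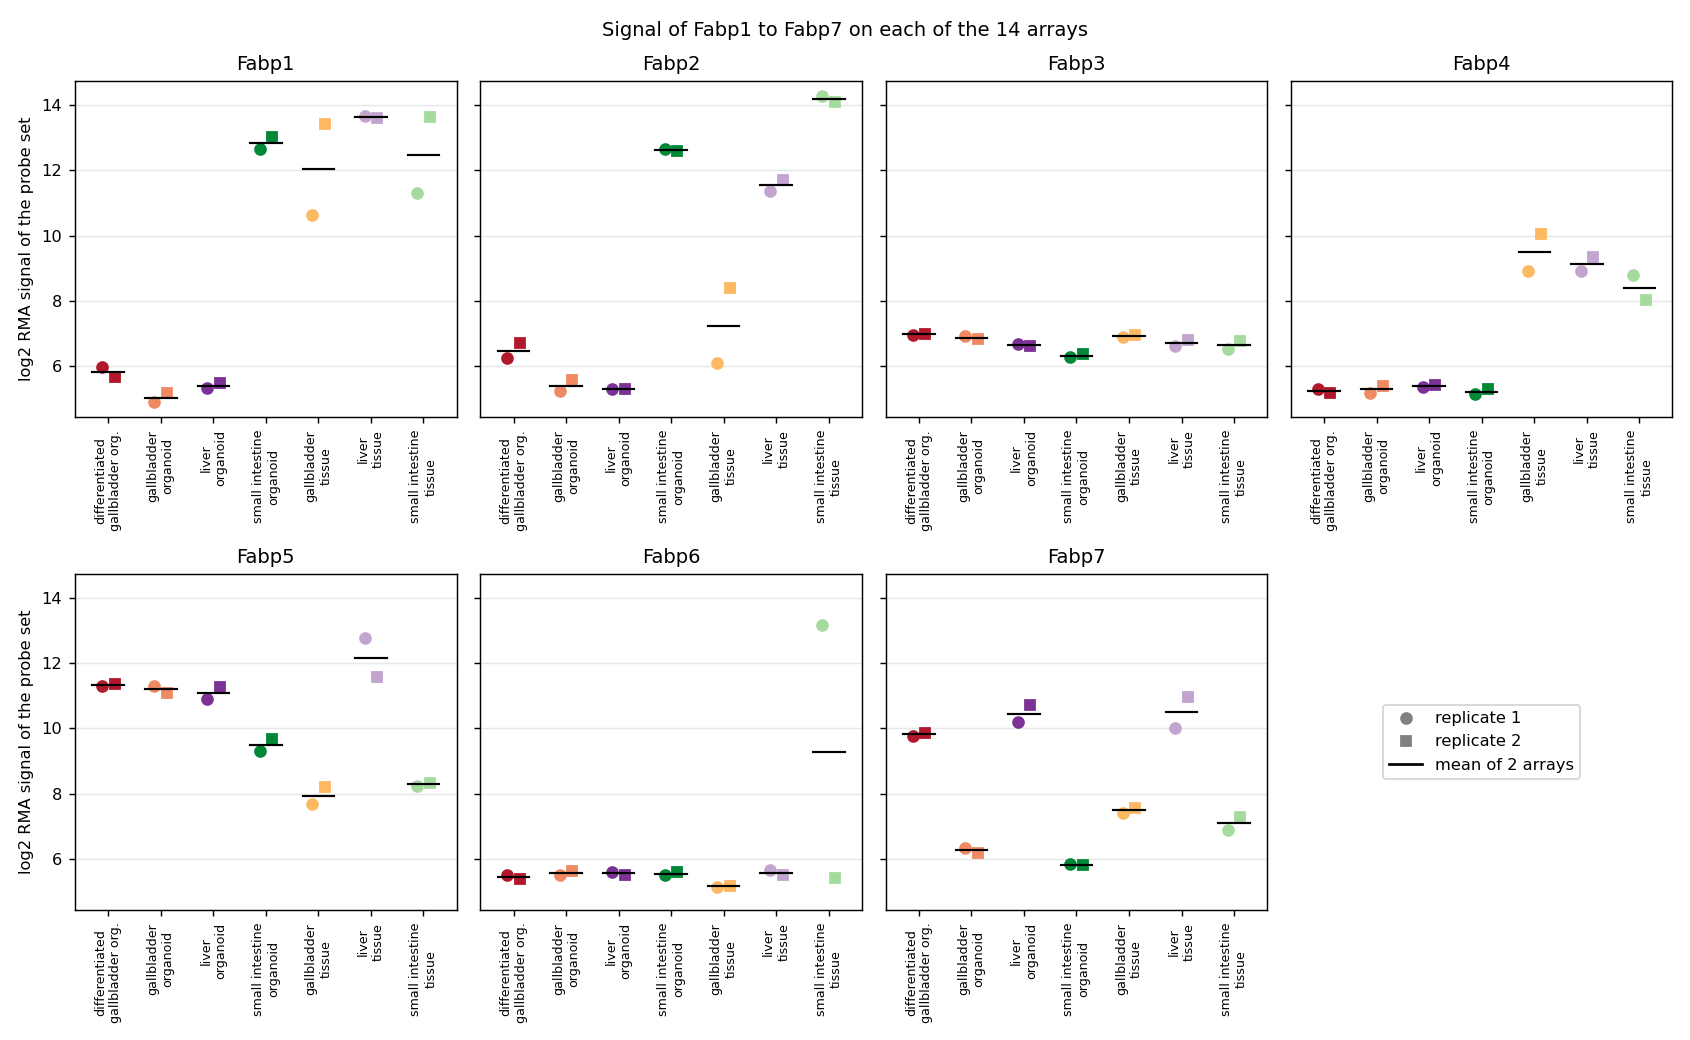
Log2 signal of each fatty acid binding protein (vertical axis, 1 panel per gene) on each of the 14 arrays, by group. Circles are replicate 1, squares replicate 2 and lines the mean of both. Fabp1 and Fabp2 are high in small intestine organoids and low in the other organoids, Fabp4 is high only in tissues, Fabp6 is high on 1 array, and Fabp7 is high in both liver groups and in differentiated gallbladder organoids.

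Fabp1 (probe set 10538965), which carries fatty acids in hepatocytes and enterocytes, was low in gallbladder and liver organoids and high in small intestine organoids and in every tissue. It read 5.98 and 5.69 in differentiated gallbladder organoids, 4.91 and 5.17 in gallbladder organoids and 5.33 and 5.48 in liver organoids. Small intestine organoids gave 12.67 and 13.02. Gallbladder tissue gave 10.65 and 13.42, liver tissue 13.67 and 13.61, and small intestine tissue 11.32 and 13.63. No array of the first 3 organoid groups reached the lowest of the others. Gallbladder organoids were below small intestine organoids by 7.80 log2 units (difference -7.80 ± 0.82, SE, limma adjusted p = 5.13e-05), and liver organoids by a like amount (-7.44, adjusted p = 7.51e-05). In order of mean, liver tissue (13.64) led, then small intestine organoids (12.84), small intestine tissue (12.47) and gallbladder tissue (12.03). Liver tissue and small intestine organoids did not overlap, while the arrays of small intestine organoids, small intestine tissue and gallbladder tissue did. The differentiated gallbladder (5.83), liver (5.40) and gallbladder (5.04) organoids came last, and no array of 1 of these overlapped with its neighbour, although the differences of 0.79 after withdrawal (adjusted p = 0.736) and -0.36 between gallbladder and liver organoids (adjusted p = 0.837) did not pass the test. Both passed when only the arrays compared were fitted (0.00619 and 0.0409).

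Fabp1 fell in culture where the organ was gallbladder or liver. Gallbladder organoids were below gallbladder tissue by 6.99 (difference -6.99 ± 0.82, adjusted p = 9.67e-05), and without gallbladder tissue replicate 1 or 2 this difference was -8.38 or -5.61. The 13 hepatocyte markers moved the same way, being lower in gallbladder organoids in 13 of 13 (15.2% of all genes), and gallbladder tissue replicate 2, which had the higher Fabp1, was also the higher in 12 of them. Their part in the result was not tested. Liver organoids were below liver tissue by 8.24 (difference -8.24, adjusted p = 2.05e-05), again with 13 of 13 hepatocyte markers lower (18.2% of all genes). Small intestine organoids differed from small intestine tissue by 0.37 ± 0.82 (adjusted p = 0.796), and their arrays overlapped. This value was -0.79 without small intestine tissue replicate 1 and 1.52 without replicate 2. Between tissues Fabp1 passed no test: gallbladder minus liver was -1.61 (adjusted p = 0.133), gallbladder minus small intestine -0.44 (0.691) and liver minus small intestine 1.17 (0.311). Without gallbladder tissue replicate 2 the first of these became -2.99 and passed (adjusted p = 0.00555), and without replicate 1 it was -0.22. With single arrays left out the second ran from -1.83 to 0.95, and the third was 0.0099 or 2.32 without small intestine tissue replicate 1 or 2.

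The genes whose signal followed Fabp1 most closely over the 14 arrays were Slc27a2, a very long-chain acyl-CoA synthetase (r = 0.994), Cps1, the first enzyme of the urea cycle (0.988), and Fbp1, an enzyme of gluconeogenesis (0.987). Slc27a2 read 6.17 and 6.02 in gallbladder organoids, and 6.11 and 6.08 in liver organoids, while small intestine organoids had 12.24 and 12.19. It also shared the split of Fabp1 within tissue groups, at 10.99 and 13.48 in gallbladder tissue and 11.04 and 12.57 in small intestine tissue.

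Fabp2 (probe set 10495820), the intestinal type, was highest in small intestine tissue and organoids and was also high in liver tissue. Differentiated gallbladder organoids gave 6.25 and 6.71, gallbladder organoids 5.25 and 5.57, liver organoids 5.30 and 5.30, and small intestine organoids 12.66 and 12.60. Gallbladder tissue gave 6.10 and 8.40, liver tissue 11.38 and 11.70, and small intestine tissue 14.27 and 14.08. The intestinal groups and liver tissue did not overlap with any other group or with each other. Gallbladder tissue overlapped with differentiated organoids, and gallbladder organoids with liver organoids. The small intestine tissue signal is close to the top of the scale, which compresses differences.

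Among organoids, Fabp2 was lower in those of gallbladder (-7.22 ± 0.55, adjusted p = 4.75e-06) and of liver (-7.33, adjusted p = 4.25e-06) than in those of small intestine. Enterocyte markers ran with it: 12 of 12 were lower in gallbladder organoids (15.4% of all genes, median difference -5.06, against 0.11 over all genes) and 12 of 12 in liver organoids (12.2% of all genes, median -4.77, against 0.05). In liver tissue they did not, since the mean of the 12 was 7.29 and 7.44 there and Sis read 4.91 and 5.07, while Fabp2 was above 11 on both arrays. Fabp2 fell in liver organoids relative to liver tissue (-6.24, adjusted p = 8.27e-06). Small intestine organoids were 1.54 below small intestine tissue, which missed the threshold (difference -1.54, adjusted p = 0.0502) and passed it under 7 of 24 other settings. Gallbladder tissue replicate 2 had the higher Fabp2 (8.40 against 6.10) and the higher mean of the 13 hepatocyte markers (13.52 against 12.07). The part of hepatocytes in the Fabp2 signal of gallbladder tissue was not tested. Gallbladder organoids were lower than gallbladder tissue (difference -1.84, adjusted p = 0.0189), a value that depended on single arrays. It was -2.99 without gallbladder tissue replicate 1 and -0.69 without replicate 2, and the call ended without gallbladder organoid replicate 1 (0.0955) or 2 (0.0566), or when only the arrays compared were fitted (0.149).

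Between tissues, Fabp2 was lower in gallbladder than in liver (-4.29, adjusted p = 0.000173) and than in small intestine (-6.92, adjusted p = 5.71e-06), and lower in liver than in small intestine (-2.63, adjusted p = 0.00329). Without gallbladder tissue replicate 1 or 2 the first was -3.14 or -5.44, and the second -5.77 or -8.08. Withdrawal of the 3 factors left Fabp2 1.07 ± 0.55 higher in differentiated gallbladder organoids, with arrays that did not overlap but no call (adjusted p = 0.382). That difference passed without either gallbladder tissue array (0.00629 each), with array weights (0.00275) and when only the 4 arrays compared were fitted (0.00611). The genes nearest to Fabp2 in pattern were Tm6sf2, a protein of lipoprotein secretion (r = 0.992), the flavin monooxygenase Fmo4 and the receptor Vipr1 of vasoactive intestinal peptide (0.986 each). Tm6sf2 shared the high liver tissue level, at 12.37 and 12.55, against 13.68 and 13.69 in small intestine tissue.

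**Figure D2:**
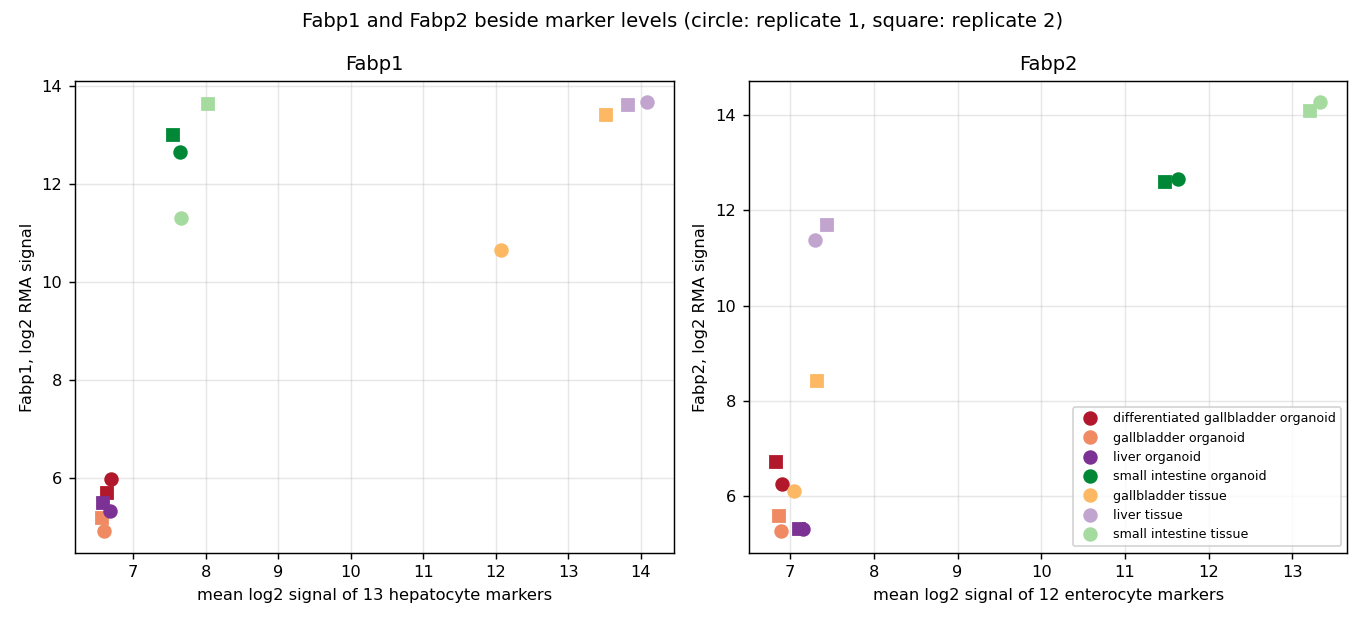
Log2 signal of Fabp1 against the mean of 13 hepatocyte markers (left) and of Fabp2 against the mean of 12 enterocyte markers (right), 1 point per array, circles for replicate 1 and squares for replicate 2. Fabp1 is high at low hepatocyte marker levels in the small intestine groups, and Fabp2 is high at an enterocyte marker mean of 7.29 and 7.44 in liver tissue.

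Fabp6 (probe set 10385337), the bile acid carrier of the ileum, was high on a single array. It read 13.16 on small intestine tissue replicate 1 and 5.42 on replicate 2, a gap of 7.74 log2 units or 214-fold, and no other of the 19938 genes differed as much between those arrays. The remaining 12 arrays lay between 5.15 in gallbladder tissue and 5.67 in liver tissue, and the 8 organoid arrays lay between 5.38 and 5.62, those of small intestine (5.52 and 5.59) among them. The group means outside small intestine tissue were 5.59 in liver tissue, 5.57 in gallbladder organoids, 5.56 in liver organoids, 5.56 in small intestine organoids, 5.45 in differentiated gallbladder organoids and 5.17 in gallbladder tissue. Only the last of these stood clear of its neighbour.

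No comparison of Fabp6 passed the test with all arrays: small intestine organoids minus tissue was -3.73 ± 1.74 (adjusted p = 0.130), gallbladder minus small intestine tissue -4.12 (0.0792) and liver minus small intestine tissue -3.70 (0.128). Without small intestine tissue replicate 2 these became -7.60 (adjusted p = 6.59e-09), -7.99 (1.45e-09) and -7.57 (2.32e-09), in fits where the lone array is assumed to vary like the other groups. Without replicate 1 they were 0.14, -0.25 and 0.17. With array weights the first passed at its full value (0.0392). Without either small intestine tissue array the smaller differences of gallbladder organoids minus gallbladder tissue (0.40) and of gallbladder minus liver tissue (-0.42) passed. Their values were the same as with all arrays, and the arrays compared lay between 5.15 and 5.67, the low level of this probe set.

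Other genes of ileal bile acid handling differed between the same 2 arrays. The hormone gene Fgf15 read 12.04 on replicate 1 and 7.19 on replicate 2, the bile acid uptake transporter Slc10a2 11.94 and 6.18, and the receptor gene Nr1h4 11.13 and 8.87. Slc51a (12.86 and 11.43) and Slc51b (13.06 and 11.87), the subunits of the basolateral bile acid exporter, differed less. Of the 8 genes of the list, 3 were higher on replicate 2. The 12 enterocyte markers differed little, with means of 13.34 and 13.22. Fabp1 went the other way, 11.32 on replicate 1 and 13.63 on replicate 2, and Fabp2 hardly moved (14.27 and 14.08). The genes most like Fabp6 over the 14 arrays were Tmigd1 (r = 0.994), Fgf15 (0.991) and Fam151a (0.988). Likeness to Fabp6 is set by 1 array, on which Tmigd1 read 12.37 and Fam151a 12.67, against 6.16 and 7.49 on replicate 2.

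**Figure D3:**
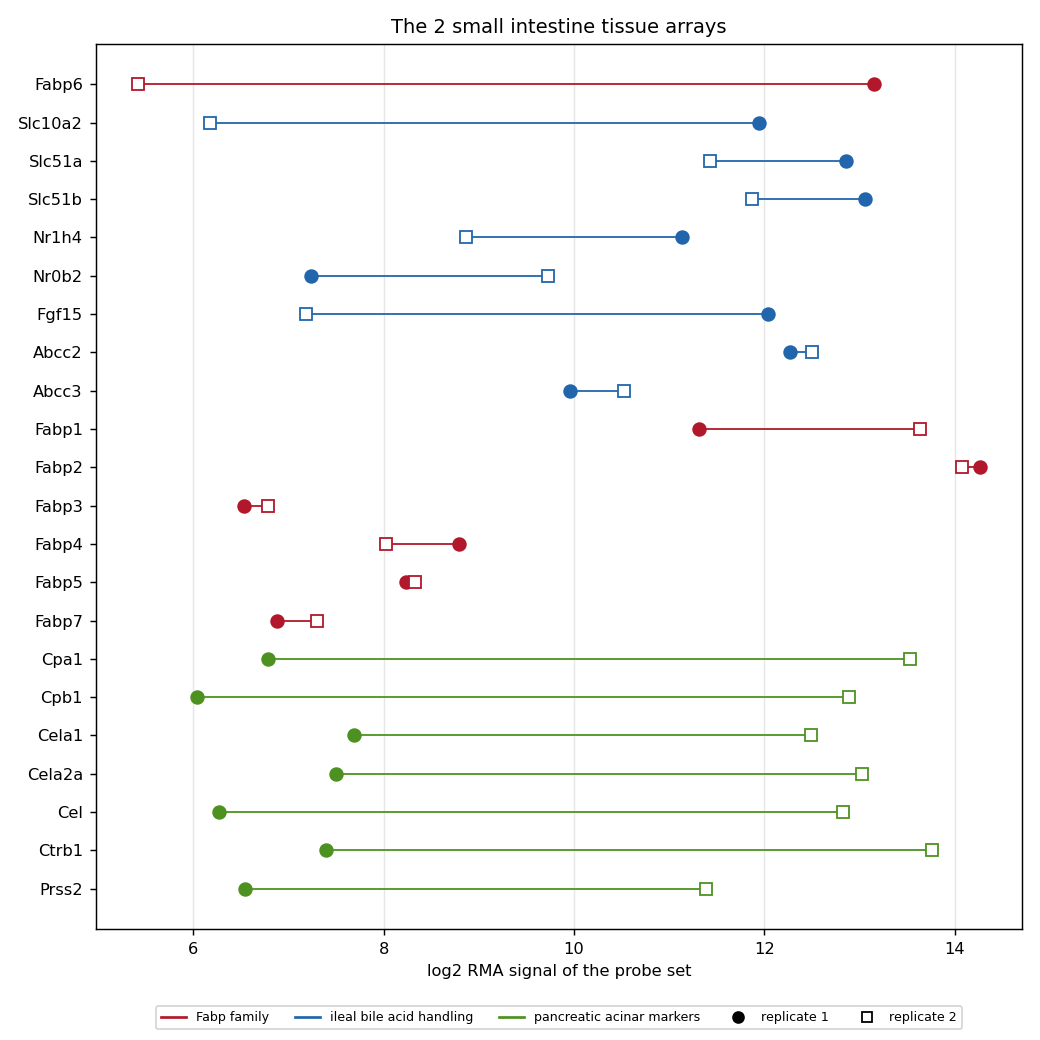
Log2 signal of the fatty acid binding proteins (red), the 8 genes of ileal bile acid handling (blue) and the 7 pancreatic acinar markers (green) on the 2 small intestine tissue arrays, filled circles for replicate 1 and open squares for replicate 2. Fabp6, Slc10a2 and Fgf15 are high on replicate 1 alone, the acinar markers on replicate 2 alone, and Fabp2 is high on both.

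Fabp4 (probe set 10497265), the carrier of adipocytes, macrophages and capillary endothelium, was a tissue gene. Differentiated gallbladder organoids gave 5.31 and 5.17, gallbladder organoids 5.18 and 5.41, liver organoids 5.37 and 5.43, and small intestine organoids 5.16 and 5.29. It read 8.93 and 10.06 in gallbladder tissue, 8.91 and 9.35 in liver tissue and 8.79 and 8.03 in small intestine tissue. No organoid array reached a tissue array. Liver organoids overlapped with gallbladder organoids but not with the other 2 organoid groups. The differences of organoid minus tissue were -4.20 ± 0.34 for gallbladder (adjusted p = 8.00e-06), -3.73 for liver (1.06e-05) and -3.18 for small intestine (6.06e-05). None of the 3 differences between these values passed the test with all arrays. The one of gallbladder and small intestine did without gallbladder tissue replicate 1 (-1.59, adjusted p = 0.00846) or small intestine tissue replicate 1 (-1.40, adjusted p = 0.0490). Differences among organoids, including the one after withdrawal (-0.06), stayed within 0.18 and did not pass.

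Markers of endothelium and macrophages, cells known for Fabp4, were mostly lower in organoids, and those of adipocytes were so for gallbladder. Endothelial markers were lower in 10 of 10 for gallbladder, 10 of 10 for liver and 7 of 10 for small intestine, where 15.2%, 18.2% and 15.6% of all genes were lower. Macrophage markers were lower in 8, 8 and 7 of 10, with 2 higher for gallbladder and 1 higher for liver. Adipocyte markers were lower in 7, 2 and 2 of 9, where the counts for liver and small intestine are near the shares of all genes. Across replicates, Fabp4 was the higher on gallbladder tissue replicate 2, liver tissue replicate 2 and small intestine tissue replicate 1. The adipocyte marker means had that same order, at 8.75 and 9.65, 7.31 and 8.53, and 8.59 and 7.93 for replicates 1 and 2. The endothelial means had the order of Fabp4 in gallbladder tissue (8.70 and 9.36) and liver tissue (9.37 and 9.44), and the opposite order in small intestine tissue (8.0 and 8.34). The macrophage means had the opposite order in liver tissue (10.25 and 9.88) and small intestine tissue (7.96 and 8.62), and not in gallbladder tissue (8.39 and 8.66). The part of these cells in the Fabp4 signal was not tested. Between tissues Fabp4 passed only in gallbladder against small intestine (1.09, adjusted p = 0.0246), a call lost without gallbladder tissue replicate 2 (0.52, adjusted p = 0.160) or small intestine tissue replicate 2 (0.71, adjusted p = 0.161). Gallbladder minus liver was 0.37 (adjusted p = 0.391) and liver minus small intestine 0.72 (0.127). Without gallbladder tissue replicate 1 the first was 0.94 (adjusted p = 0.0276), and without replicate 2 it was -0.20. The second passed without either gallbladder tissue array (0.72, adjusted p = 0.0317) and without small intestine tissue replicate 1 (1.10, adjusted p = 0.0467), and was 0.34 without replicate 2. Its nearest genes in pattern were Bmp5, a BMP ligand (r = 0.989), Dcn, a proteoglycan of connective tissue (0.987), and Stab1, a scavenger receptor (0.985). Dcn read 5.76 and 5.76 in gallbladder organoids and 13.04 and 12.94 in gallbladder tissue.

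Fabp5 (probe set 10585699), the epidermal type, was high in gallbladder and liver organoids and in liver tissue, and low in the tissues of gallbladder and small intestine. It read 11.29 and 11.36 in differentiated gallbladder organoids, 11.31 and 11.10 in gallbladder organoids, and 10.91 and 11.27 in liver organoids. Small intestine organoids had 9.31 and 9.69. Gallbladder tissue gave 7.68 and 8.20, liver tissue 12.78 and 11.56, and small intestine tissue 8.24 and 8.33. The order of means was liver tissue (12.17), differentiated gallbladder organoids (11.33), gallbladder organoids (11.20), liver organoids (11.09), small intestine organoids (9.50), small intestine tissue (8.28) and gallbladder tissue (7.94). Among these, arrays overlapped between neighbours within the gallbladder and liver organoids only.

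The direction of the culture difference of Fabp5 depended on the organ. It rose in gallbladder organoids relative to gallbladder tissue by 3.26 ± 0.33 (adjusted p = 3.73e-05) and in small intestine organoids relative to small intestine tissue by 1.21 (0.0165), and fell in liver organoids relative to liver tissue (-1.08, 0.0231). The small intestine call ended without small intestine organoid replicate 2 (0.115) or small intestine tissue replicate 1 (0.0636). The liver call ended without liver tissue replicate 1 (-0.47, adjusted p = 0.168) or liver organoid replicate 1 (-0.90, adjusted p = 0.134), and the value was -1.69 without liver tissue replicate 2. Among organoids Fabp5 was higher in those of gallbladder (1.70, adjusted p = 0.00289) and of liver (1.59, adjusted p = 0.00499) than in those of small intestine, while gallbladder minus liver (0.11) and differentiated minus undifferentiated gallbladder (0.13) did not pass. Between tissues it was lower in gallbladder than in liver (-4.23, adjusted p = 8.22e-06) and higher in liver than in small intestine (3.89, adjusted p = 8.72e-06). Without liver tissue replicate 1 these were -3.62 and 3.28, and without replicate 2 they were -4.84 and 4.50. Gallbladder minus small intestine tissue was -0.35 (0.423).

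A second probe set named Fabp5 (10490838) followed the first over the 14 arrays (r = 0.999), never more than 0.29 apart. The IDs next to the one used belong to Trcg1 and Rpp25, and those next to the second to Zbtb10 and Gm9833. Fabp5 lies beside Pmp2, Fabp9, Fabp4 and Fabp12 in that order on chromosome 3 in RefSeq. Its neighbour Fabp4 did not follow it over the 14 arrays (r = -0.39). Probe positions were not used, so the locus that either Fabp5 probe set reads is uncertain. Near-identical copies of Fabp5 itself cannot be told apart here. The closest genes in pattern were Qpctl, a glutaminyl cyclase (r = 0.961), Wdr45, an autophagy protein (0.957), and Alg1, a mannosyltransferase of N-glycan assembly (0.953).

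Fabp7 (probe set 10363224), the brain type, was high in liver, in tissue and organoids alike, and rose in gallbladder organoids after withdrawal of the 3 factors. It read 9.77 and 9.87 in differentiated gallbladder organoids and 6.35 and 6.18 in gallbladder organoids, a difference of 3.55 ± 0.28, or 11.7-fold (adjusted p = 8.47e-05). Liver organoids gave 10.19 and 10.72 and small intestine organoids 5.85 and 5.81. Gallbladder tissue gave 7.42 and 7.57, liver tissue 10.02 and 10.96, and small intestine tissue 6.88 and 7.30. Arrays overlapped between liver organoids and liver tissue and between no other neighbours in the order. The differentiated organoids, at a mean of 9.82, lay above gallbladder tissue (7.50) and below liver organoids (10.45).

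Fabp7 was lower in gallbladder organoids than in those of liver (difference -4.19, limma adjusted p = 2.07e-05). This comparison shares the gallbladder organoid arrays with the one after withdrawal. Fabp7 was higher in liver than in small intestine organoids by 4.62 (adjusted p = 9.02e-07), while gallbladder minus small intestine organoids was 0.43 (0.253), which passed with array weights (0.0241) or when only the arrays compared were fitted (0.00495). It fell in culture in gallbladder (-1.23, adjusted p = 0.00466) and small intestine (-1.26, adjusted p = 0.00496), and liver organoids differed from liver tissue by -0.03 ± 0.28 (0.941), with overlapping arrays. Between tissues it was lower in gallbladder than in liver (-2.99, adjusted p = 2.22e-05), higher in liver than in small intestine (3.40, adjusted p = 5.79e-06), and 0.41 apart in gallbladder and small intestine (0.256). Macrophage markers were higher in liver than in small intestine tissue in 9 of 10 (18.7% of all genes) and lower in gallbladder than in liver in 8 of 10 (27.4% of all genes). In liver organoids, with Fabp7 as high as in liver tissue, their mean was 7.36 and 7.32, against 10.25 and 9.88 in liver tissue. Of 8 neural and glial markers, 1 was higher in differentiated than in undifferentiated gallbladder organoids (2.8% of all genes). Between gallbladder and liver organoids 0 were called (12.7% of all genes). The 1 that rose was the glial marker S100b (1.03, adjusted p = 0.00319), at 8.48 and 8.49 in differentiated gallbladder organoids and 7.39 and 7.53 in gallbladder organoids. Liver organoids had S100b at 7.25 and 7.48, against 6.35 and 6.64 in liver tissue. The part of these markers' cells in the Fabp7 signal was not tested. The nearest genes in pattern were further from Fabp7 than those of Fabp1 or Fabp2 were from theirs: Notch4, a Notch receptor (r = 0.926), Serpinb8, a protease inhibitor (0.892), and Rin3 (0.888). Notch4 read 8.23 and 8.27 in differentiated and 7.72 and 7.74 in undifferentiated gallbladder organoids, and 8.65 and 8.48 in liver organoids.

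Fabp3 (probe set 10371502), the heart and muscle type, was nearly flat, between 6.28 and 7.0 on all 14 arrays. It was highest in differentiated gallbladder organoids (6.96 and 7.0) and lowest in small intestine organoids (6.28 and 6.38). Liver organoids gave 6.70 and 6.63, gallbladder tissue 6.89 and 6.97, and liver tissue 6.63 and 6.82. Gallbladder organoids (6.91 and 6.83) were above small intestine organoids by 0.54 ± 0.11 (adjusted p = 0.00392), and small intestine organoids were below small intestine tissue (6.53 and 6.79) by 0.33 (difference -0.33, adjusted p = 0.0426). Gallbladder minus liver organoids was 0.21 (adjusted p = 0.267), with arrays that did not overlap, and passed with array weights (0.0466). The second probe set named Fabp3 (10508614) correlated with the first at 0.82 and passed neither test (0.22, adjusted p = 0.186, and -0.15, adjusted p = 0.397). The second of these calls was kept under 8 of 23 settings, and was lost without small intestine tissue replicate 2 (-0.20, adjusted p = 0.238) or either small intestine organoid array (0.203 and 0.0929). Liver minus small intestine organoids, 0.33, missed the threshold (0.0524) and gave that result under 14 of 23 settings. Gallbladder minus small intestine tissue (0.27, adjusted p = 0.0747) passed without small intestine tissue replicate 2 (0.40, adjusted p = 0.0254). The gene it names is uncertain. The IDs beside the probe set used belong to Hsp90b1 and Stab2, between which RefSeq places the pseudogene Fabp3-ps1 on chromosome 10, while Fabp3 itself lies on chromosome 4, and probe positions were not used here. The striated muscle markers, which go with Fabp3 in heart, had means of 7.19 to 7.59 on the 14 arrays. Nxpe4 (r = 0.942), Pip4k2a (0.934) and Osgin1 (0.933) had the patterns nearest to it.

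The number of family members called in each comparison can be read against the share of all genes called there, and with 7 members the counts are small. After withdrawal 1 of 7 passed, Fabp7, which was higher, against 4.73% of all genes (2.8% higher and 1.93% lower). Between gallbladder and liver organoids 1 of 7 passed, also Fabp7, which was lower, near the 12.7% of all genes (6.17% higher and 6.52% lower). These 2 comparisons share the gallbladder organoid arrays, so the 2 calls of Fabp7 are not independent. Against small intestine organoids, gallbladder organoids had 2 higher and 2 lower, 4 of 7, against 35.6% of all genes (20.2% higher and 15.4% lower). Liver organoids had 2 higher and 2 lower against them, 4 of 7, against 26.5% (14.2% higher and 12.2% lower). The 2 that were higher in gallbladder organoids include Fabp3, whose second probe set did not pass there (0.22, adjusted p = 0.186).

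Organoids against tissue gave more members lower than higher in each organ. For gallbladder 5 of 7 passed, 1 higher and 4 lower, against 47.9% of all genes (32.7% higher and 15.2% lower). For liver 4 of 7 passed, 0 higher and 4 lower, against 44.9% (26.7% higher and 18.2% lower). For small intestine 4 of 7 passed, 1 higher and 3 lower, against 35.8% (20.2% higher and 15.6% lower). The lower ones include Fabp3, whose call was kept under 8 of 23 settings and not with its second probe set (-0.15, adjusted p = 0.397). The higher member was Fabp5 in gallbladder and in small intestine. Between tissues 3 of 7 passed for gallbladder against liver, all lower, against 48.1% (20.7% higher and 27.4% lower). For gallbladder against small intestine 2 of 7 passed, 1 each way, against 45% (20.7% higher and 24.3% lower), and for liver against small intestine 3 of 7, 2 higher and 1 lower, against 37.5% (18.7% higher and 18.8% lower).

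**Figure D4:**
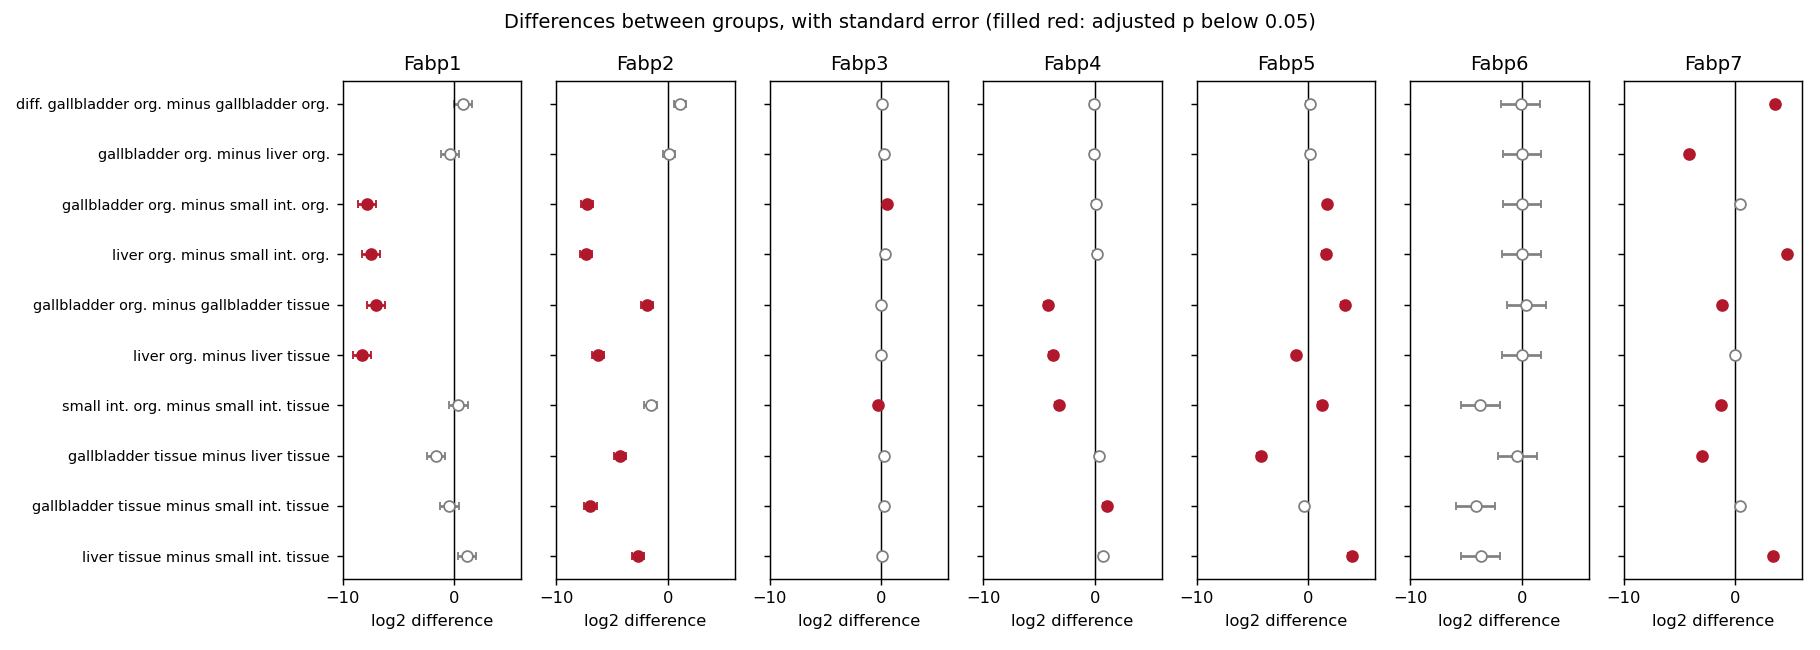
Difference of each fatty acid binding protein (1 panel per gene, log2 units on the horizontal axis) in each of the 10 comparisons, with its standard error as whiskers. Filled red points have an adjusted p below 0.05, open grey points do not. Fabp7 is the filled point for withdrawal in gallbladder organoids, and Fabp6 has the widest errors.

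Whether the difference of organoid minus tissue was the same in every organ was tested for each member as an interaction in the same model. For gallbladder against liver 3 of 7 differed, against 39.8% of all genes (22.7% higher and 17.1% lower). For gallbladder against small intestine 2 of 7 did, against 36.6% (22.3% higher and 14.3% lower), and for liver against small intestine 4 of 7, against 35.2% (19% higher and 16.2% lower). With 7 members, these counts are near the shares of all genes. Fabp1 changed more in gallbladder than in small intestine (-7.36 ± 1.17, adjusted p = 0.00116) and more in liver than in small intestine (-8.60, adjusted p = 0.000291). Without small intestine tissue replicate 1 the liver value was -7.45 and without replicate 2 it was -9.76, and the gallbladder value ran from -8.75 to -5.97 with single arrays left out. Its gallbladder and liver differences passed no such test with all arrays (1.24, adjusted p = 0.422), and did without gallbladder tissue replicate 2 (2.63, adjusted p = 0.0370). Fabp2 fell more in liver than in gallbladder (4.40 ± 0.77, adjusted p = 0.00173, and 3.25 or 5.56 without gallbladder tissue replicate 1 or 2) and more in liver than in small intestine (-4.70, adjusted p = 0.000944). Its gallbladder and small intestine differences passed no test of being unequal with all arrays (-0.30, adjusted p = 0.789), but the value was -1.45 without gallbladder tissue replicate 1 (adjusted p = 0.00348) and 0.86 without replicate 2 (adjusted p = 0.0366), which reverses it.

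Fabp5 differed in all 3 of these tests. Gallbladder minus liver was 4.34 ± 0.47 (adjusted p = 0.000106), gallbladder minus small intestine 2.05 (adjusted p = 0.00811) and liver minus small intestine -2.29 (adjusted p = 0.00360), and without liver tissue replicate 1 or 2 the first was 3.73 or 4.95 and the last -1.68 or -2.90. For Fabp7, gallbladder minus liver was -1.20 ± 0.39 (adjusted p = 0.0338) and liver minus small intestine 1.22 (adjusted p = 0.0332). The first call ended without any 1 of 10 of the arrays, liver tissue replicate 1 (-0.73, 0.0814) and liver organoid replicate 2 (-0.93, 0.128) among them. The second ended without any 1 of 7, again with liver tissue replicate 1 (0.76, 0.0789) and liver organoid replicate 2 (0.96, 0.127) among them. Fabp3 and Fabp4 passed none of the 3 tests with all arrays. Fabp6 passed none with all arrays, and without small intestine tissue replicate 2 differed for gallbladder (8.0, adjusted p = 4.14e-08) and for liver (7.57, adjusted p = 3.39e-08) against small intestine. Without either small intestine tissue array gallbladder minus liver passed for Fabp6 at 0.43, the same value as with all arrays and among low signals.

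**Figure D5:**
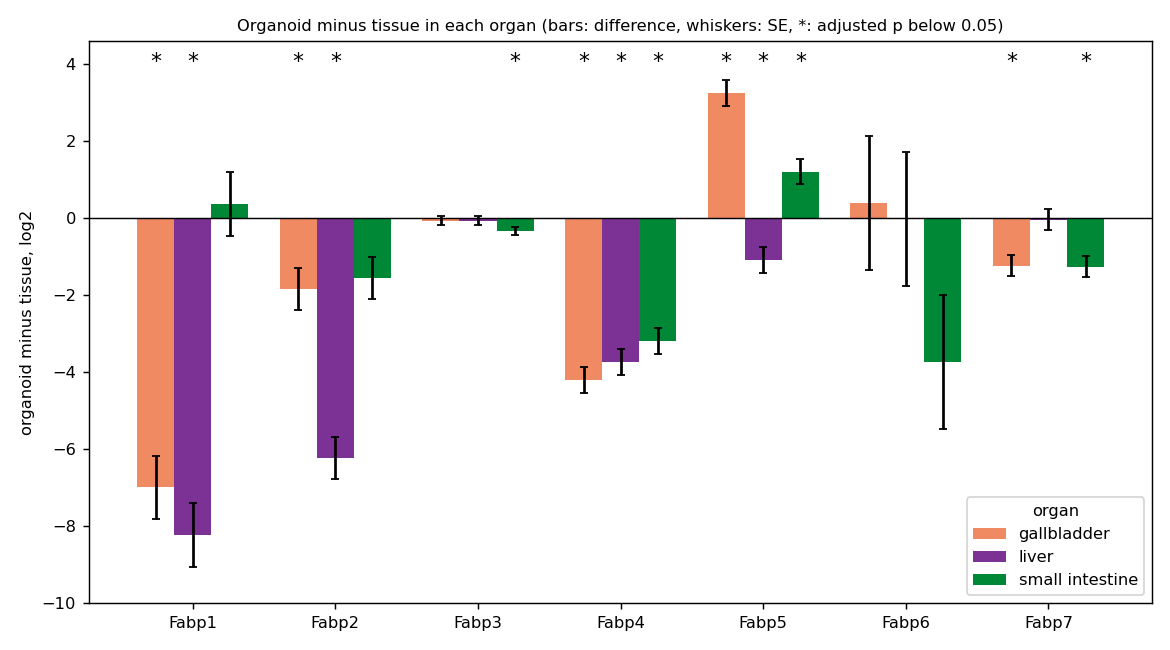
Organoid minus tissue difference (log2, vertical axis) of each fatty acid binding protein in gallbladder, liver and small intestine, as bars from 0 with the standard error as whiskers and an asterisk at an adjusted p below 0.05. Fabp4 is lower in organoids of every organ, Fabp1 in those of gallbladder and liver, and Fabp5 is higher in those of gallbladder and small intestine and lower in those of liver.

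Genes that act before and after the binding proteins were followed in lists chosen for their role. Fatty acid uptake and activation includes the transporter Cd36 and the acyl-CoA synthetases. In gallbladder against small intestine organoids 4 of its 12 genes were lower and 1 higher, where 15.4% of all genes were lower and 20.2% higher (median difference -0.19, against 0.11 over all genes), with Slc27a2 at -6.12, Cd36 at -4.51 and Acsl4 at 3.14. In liver against small intestine organoids the counts were also 4 lower and 1 higher (12.2% and 14.2% of all genes). Liver organoids against liver tissue gave 6 lower and 1 higher (18.2% and 26.7% of all genes, median -0.35), led by Slc27a2 (-7.26), the bile acid ligase Slc27a5 (-6.88) and Cd36 (-5.32). Gallbladder organoids against tissue gave 4 lower and 4 higher (15.2% and 32.7% of all genes), and small intestine organoids against tissue 3 lower and 3 higher (15.6% and 20.2%), with the transport protein Slc27a4 at -2.65. None of the 12 passed after withdrawal or between gallbladder and liver organoids, where 4.73% and 12.7% of all genes did.

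Triglyceride and chylomicron assembly, the step that exports absorbed fat, moved with Fabp1 and Fabp2 among organoids. Of its 12 genes, 9 were lower and 0 higher in gallbladder than in small intestine organoids (15.4% and 20.2% of all genes, median -2.76), with the apolipoproteins Apoa1 (-6.11), Apoa4 (-5.26) and Apob (-5.25) and the lipid transfer protein Mttp (-4.83) the furthest apart. In liver against small intestine organoids 7 were lower and 1 higher (12.2% and 14.2% of all genes, median -2.34). Against the organ of origin, 9 were lower and 2 higher in liver organoids (median -1.49), 5 lower and 3 higher in gallbladder organoids (-0.63) and 7 lower and 0 higher in small intestine organoids (-1.0, against -0.02 over all genes). The shares of all genes lower in these 3 comparisons were 18.2%, 15.2% and 15.6%. After withdrawal 1 rose (2.8% of all genes), Apob (2.54, adjusted p = 0.0306), at 8.96 and 8.91 in differentiated gallbladder organoids and 6.23 and 6.58 in gallbladder organoids.

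The list of receptors and regulators holds the PPAR receptors and the HNF4, GATA and CDX factors. In gallbladder against small intestine organoids 5 of 12 were lower and 2 higher (15.4% and 20.2% of all genes), with Hnf4g at -6.37, Gata4 at -3.90, Cdx2 at -3.72 and Ppara at -3.03. In liver against small intestine organoids 6 were lower and 3 higher (12.2% and 14.2% of all genes). Ppara, the fatty acid receptor of liver and gut, read 7.25 and 7.32 in gallbladder organoids and 7.38 and 7.75 in liver organoids, against 11.55 and 11.80 in liver tissue. Its means were 7.37 in differentiated gallbladder organoids, 10.32 in small intestine organoids and 11.01 in small intestine tissue. Among these groups, which leave out gallbladder tissue, the low and high ones were those of Fabp1. Pparg ran otherwise, with 12.03 and 11.93 in liver organoids and 9.55 and 9.30 in liver tissue (difference 2.55, adjusted p = 0.000198). Hnf4a read 10.96 to 13.15 on the 14 arrays. It was lower in liver than in small intestine organoids (-1.20, adjusted p = 0.0151), and gallbladder minus small intestine organoids was -0.79 (0.0727). Hnf4g rose after withdrawal (2.73 ± 0.21, adjusted p = 7.81e-05), with 8.46 and 8.52 in differentiated gallbladder organoids and 5.65 and 5.85 in gallbladder organoids, and stood lower in gallbladder organoids than in those of liver (-2.15, adjusted p = 0.000180). Both comparisons share the gallbladder organoid arrays.

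Other PPAR target genes were lower in gallbladder and liver organoids than in the tissues, in 7 of 12 for gallbladder with 1 higher (median -1.32) and in 8 of 12 for liver with 0 higher (median -1.30), and in 1 of 12 for small intestine. Of all genes 15.2%, 18.2% and 15.6% were lower there. In liver the fatty acid hydroxylases Cyp4a14 (-6.72) and Cyp4a10 (-4.46) led. After withdrawal 0 of 12 passed (4.73% of all genes). Between gallbladder and liver organoids 1 did (12.7% of all genes), Pdk4, a kinase that restrains pyruvate oxidation (-2.83). Among the 8 genes of ileal bile acid handling, gallbladder against small intestine organoids gave 5 lower and 2 higher (15.4% and 20.2% of all genes). The uptake transporter Slc10a2, the partner of Fabp6 in the ileum, was higher in gallbladder (10.35 and 10.40) and liver organoids (11.14 and 11.25) than in small intestine organoids (5.66 and 5.96), by 4.57 (adjusted p = 0.0218) and 5.39 (adjusted p = 0.0118), while Fabp6 was flat in all of them. Small intestine organoids were lower than small intestine tissue in Slc51b (-4.30) and Slc51a (-3.83).

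Of 9 listed relatives in the lipid-binding family, 7 were measured. Pmp2 (5.0 to 5.55) and Fabp9 (4.52 to 5.10), neighbours of Fabp4 and Fabp5 on chromosome 3 that were named after their values were seen, had narrow ranges over the 14 arrays. The retinol carriers differed between organs. Rbp2, the intestinal type, read 6.87 and 7.17 in organoids of gallbladder, 10.97 and 10.95 in those of liver and 12.67 and 12.72 in those of small intestine. Their tissues gave 6.24 and 6.04 in gallbladder, 6.17 and 6.25 in liver, and 13.29 and 13.95 in small intestine. It was therefore higher in liver organoids than in liver tissue (4.75 ± 0.19, adjusted p = 5.45e-08), where Fabp1 and Fabp2 were lower. Rbp7 rose after withdrawal (1.54, adjusted p = 0.00149) and stood lower in gallbladder organoids than in those of liver (-2.32, adjusted p = 8.28e-05), 2 comparisons that share the gallbladder organoid arrays. Rbp7 was the only relative of the 7 to pass after withdrawal, where 4.73% of all genes passed (median difference of the list -0.17, against -0.04 over all genes).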

How the data were processed

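The authors deposited 1 table of log2 expression values, made with RMA per the submitters' processing notes, whose version and genome build are not given in the sources used here. RMA corrects background, normalizes between arrays and summarises probes on the log2 scale, so no detection call or background signal was at hand. Of 35556 probe sets, the annotation gave 21789 a single symbol, 1621 several and 12146 no listed gene. Of the single-symbol probe sets, 21698 matched RefSeq by gene number, with 0 symbols changed. The probe set with the highest mean stood for each of 19938 genes. With limma 3.58.1 in R 4.3.3, 1 mean per group was fitted over all 14 arrays with moderated errors, and p-values were adjusted over all genes by Benjamini-Hochberg, with a call at an adjusted p under 0.05. The fit had 7 residual degrees of freedom. Its steps were tested on simulated data with the same spread in every group. The groups here differ in spread, which that test does not cover. Replicate SDs pooled over genes were 0.095 to 0.136 for organoids and 0.289 to 0.404 for tissues. With 1 error per gene, tissue spread can weaken tests between organoids, and organoid arrays can strengthen tests between tissues. The withdrawal difference of Fabp1 had an adjusted p of 0.736, against 0.00619 when only the arrays compared were fitted. Fabp4 in gallbladder against small intestine tissue had 0.0246, against 0.195. An exact permutation test of 2 against 2 cannot go below p = 0.333. The number of arrays limits precision. Promoter sequences come from RefSeq.

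The members and the 16 gene lists were chosen with earlier results of these data known. All 7 members are named, with the 3 genes most correlated with each, at most the 4 called genes with the largest differences per list and comparison, and Alb, Sis, Krt19, Ppara, Pparg, Hnf4a, Nr1h4, Rbp2 and Slc10a2. Alternatives were other normalization, filters, probe-set rules, priors, array weights, fits of only the arrays compared, a minimum difference of 1 log2 unit, a replicate block and leaving out each array.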

Additional observations from a re-analysis of the deposited data

Results flagged for a closer look

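By limma's test of the difference between the differences, the organoid minus tissue difference of a fatty acid binding protein was unequal between organs in 3 of 7 genes for gallbladder against liver, 2 of 7 for gallbladder against small intestine and 4 of 7 for liver against small intestine. Of all genes 39.8%, 36.6% and 35.2% were called in these comparisons, so the counts are near the background. Fabp1 differed for gallbladder against small intestine (-7.36, adjusted p = 0.00116) and for liver against small intestine (-8.60, adjusted p = 0.000291). Fabp2 differed for gallbladder against liver (4.40, adjusted p = 0.00173) and for liver against small intestine (-4.70, adjusted p = 0.000944). Fabp5 differed for gallbladder against liver (4.34, adjusted p = 0.000106), for gallbladder against small intestine (2.05, adjusted p = 0.00811) and for liver against small intestine (-2.29, adjusted p = 0.00360). Fabp7 differed for gallbladder against liver (-1.20, adjusted p = 0.0338) and for liver against small intestine (1.22, adjusted p = 0.0332). Each rests on 2 arrays per group. The calls of Fabp7 held under 12 of 24 and 14 of 24 other settings.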

How the results depend on the processing

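Of 2145 calls of single members over all settings, 2033 were on the same side of the threshold as reported. The counts of members called were lower with a minimum difference of 1 log2 unit: 2 against 4 for gallbladder against small intestine organoids, 3 against 5 for gallbladder organoids against tissue, 1 against 4 for small intestine organoids against tissue, 1 against 2 for gallbladder against small intestine tissue, and, for the culture differences, 1 against 2 for gallbladder against small intestine and 2 against 4 for liver against small intestine. Gallbladder against small intestine tissue also gave 1 with array weights and with only the arrays compared. It gave 1 with the dimmest genes left out because that filter removed Fabp4 (with Fabp3 and Fabp6) from the test. After withdrawal 3 members were called with only the arrays compared and 2 with array weights, against 1, and between gallbladder and liver organoids 2 with either, against 1. With each array left out in turn the counts were 1 to 2 after withdrawal, 1 for gallbladder against liver organoids, 4 for gallbladder and 4 to 5 for liver against small intestine organoids. They were 4 to 6, 3 to 4 and 2 to 5 for organoids against tissue of gallbladder, liver and small intestine, and 3 to 4, 1 to 3 and 3 to 4 for gallbladder against liver, gallbladder against small intestine and liver against small intestine tissue. For the culture differences they were 2 to 4, 2 to 4 and 3 to 4. Left out, gallbladder tissue replicate 2 turned the culture difference of Fabp2 between gallbladder and small intestine to 0.86, against -0.30 with all arrays and -1.45 without replicate 1. Another 48 values called under neither setting changed sign, the largest of size 0.95. Of 3840 counts over the gene lists, 430 moved by more than 1.5 times. Over all genes, the calls per comparison ran from 943 to 9597, from 3224 to 11709 with only the arrays compared, from 5154 to 12112 with array weights and from 66 to 2404 with the minimum difference. Whether the replicate numbers pair samples is not in the labels. Of 21 correlations between groups 2 were over 0.1 (range -0.104 to 0.139), and weak correlations cannot show that samples were unpaired. The replicate block gave 5 members against 4 for small intestine organoids against tissue, adding Fabp2 (-1.54, adjusted p = 0.0392), and left the other counts at 1, 1, 4, 4, 5, 4, 3, 2, 3, and 3, 2 and 4 for the culture differences. The causes of these changes were not tested.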
